A study of Mus musculus with 12 samples.

Results

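The genes described here are 41 genes of mitosis and chromosome segregation, listed by symbol. All 41 were found among the 26271 loci of the authors' deposited table, each in 1 locus only, and 1 of them (Foxm1) shares its locus with another symbol, 4933413G19Rik. They were measured in C2C12 cells, a mouse myoblast line that keeps dividing in serum and can fuse into muscle fibres. Cells spent 24 h in DMEM with 25 mM glucose (high glucose), with 5 mM glucose (low glucose) or with 10 mM galactose in place of glucose. Every medium also held 1 mM sodium pyruvate, 10% fetal bovine serum and 1% penicillin/streptomycin. PolyA RNA from 4 libraries per group, 12 in all, was sequenced. The deposited values are FPKM, fragments scaled for transcript length and library size, with 1 pooled value per group. The spread between libraries can therefore not be given, and the depth is unknown. No label ties a library to a culture of its own, so the p-values and q-values of Cuffdiff, the authors' test, measure only the spread between these libraries, which may be technical. A q below 0.05 counts here as a call, and "rose" and "fell" are used of called genes only. The lowest q the table can show is 0.000239. Where a change of a named gene is given as called and its q is printed nowhere in the text, it has that value.

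Mitosis is driven by the kinase CDK1 bound to cyclins A and B. It condenses the chromosomes and builds the spindle, whose fibres attach to each chromosome at the kinetochore. The spindle checkpoint holds the anaphase-promoting complex inactive until all chromosomes are attached. Once freed, that complex has securin and cyclin B destroyed, sister chromatids part, and cytokinesis follows. Many of the genes are transcribed mainly in the G2 phase and in mitosis, under the control of FOXM1, B-MYB and the MuvB complex. Their RNA is therefore often read as a sign of how many cells are dividing. In a bulk culture, fewer cells in G2 and mitosis and less RNA per cell cannot be told apart.

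In galactose, 30 of the 41 genes fell against high glucose and 0 rose by Cuffdiff's q in the authors' deposited table. At an unadjusted p below 0.05, 32 were lower and 2 (Ube2c and Smc4) higher. The largest fall was that of Mki67, the gene of the proliferation marker Ki-67, which went from 45.6 FPKM in high glucose to 41.5 in low glucose and 24.6 in galactose. It was 1.85-fold lower in galactose. Falls of the chromosomal passenger kinase gene Aurkb and of the kinetochore gene Spc24 came next, at 1.63-fold and 1.62-fold. The other falls were smaller, down to 1.12-fold for Smc2 (q = 0.0384). Among all 14812 loci tested between these media, 24.8% were called lower and 26.5% higher. The median log2 fold change was -0.28 over the 41 genes, 0.01 over all tested loci and 0.09 over tested loci with at least 10 FPKM in the larger group. With the groups scaled to the same sum of FPKM, which shifts every gene by -0.17, the median of the 41 was -0.45.

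In low glucose, 12 of the 41 fell against high glucose and 0 rose by Cuffdiff's q, with a median log2 fold change of -0.08 in the authors' deposited table. At an unadjusted p below 0.05, 14 were lower and 1 (Smc2) higher. The background was 18.2% of loci called lower and 18.3% called higher. From low glucose to galactose, 20 of the 41 fell and 2 rose, Ccnb2 (q = 0.0106) and Ube2c (q = 0.0105), with a median log2 fold change of -0.16. There the background was 16.0% lower and 17.4% higher. Under the same scaling these medians were -0.17 and -0.25. The 3 comparisons share groups and are not independent of each other.

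All 41 genes were expressed at 12.9 FPKM or more in every medium. Their levels ran from 15.2 FPKM (Cdc25c) to 173 FPKM (Ube2c) in high glucose, from 12.9 to 168 in low glucose and from 13.0 to 192 in galactose, for the same genes at both ends. Among tested loci with at least 10 FPKM in the larger group, a limit chosen after the data were seen, fewer were called lower. For low against high glucose 14.4% were called lower and 25.3% higher. For galactose these shares were 20.9% and 35.4% against high glucose, and 14.6% and 20.1% against low glucose. The summed level of the 41 genes was 2601, 2440 and 2210 FPKM in high glucose, low glucose and galactose. Galactose held the lowest of the 3 levels for 28 of the 41 (68.3%), against 37.7% of the 14243 loci tested in every comparison. High glucose held the highest level for 29 of the 41 (70.7%), against 37.5% of those loci.

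**Figure D1:**
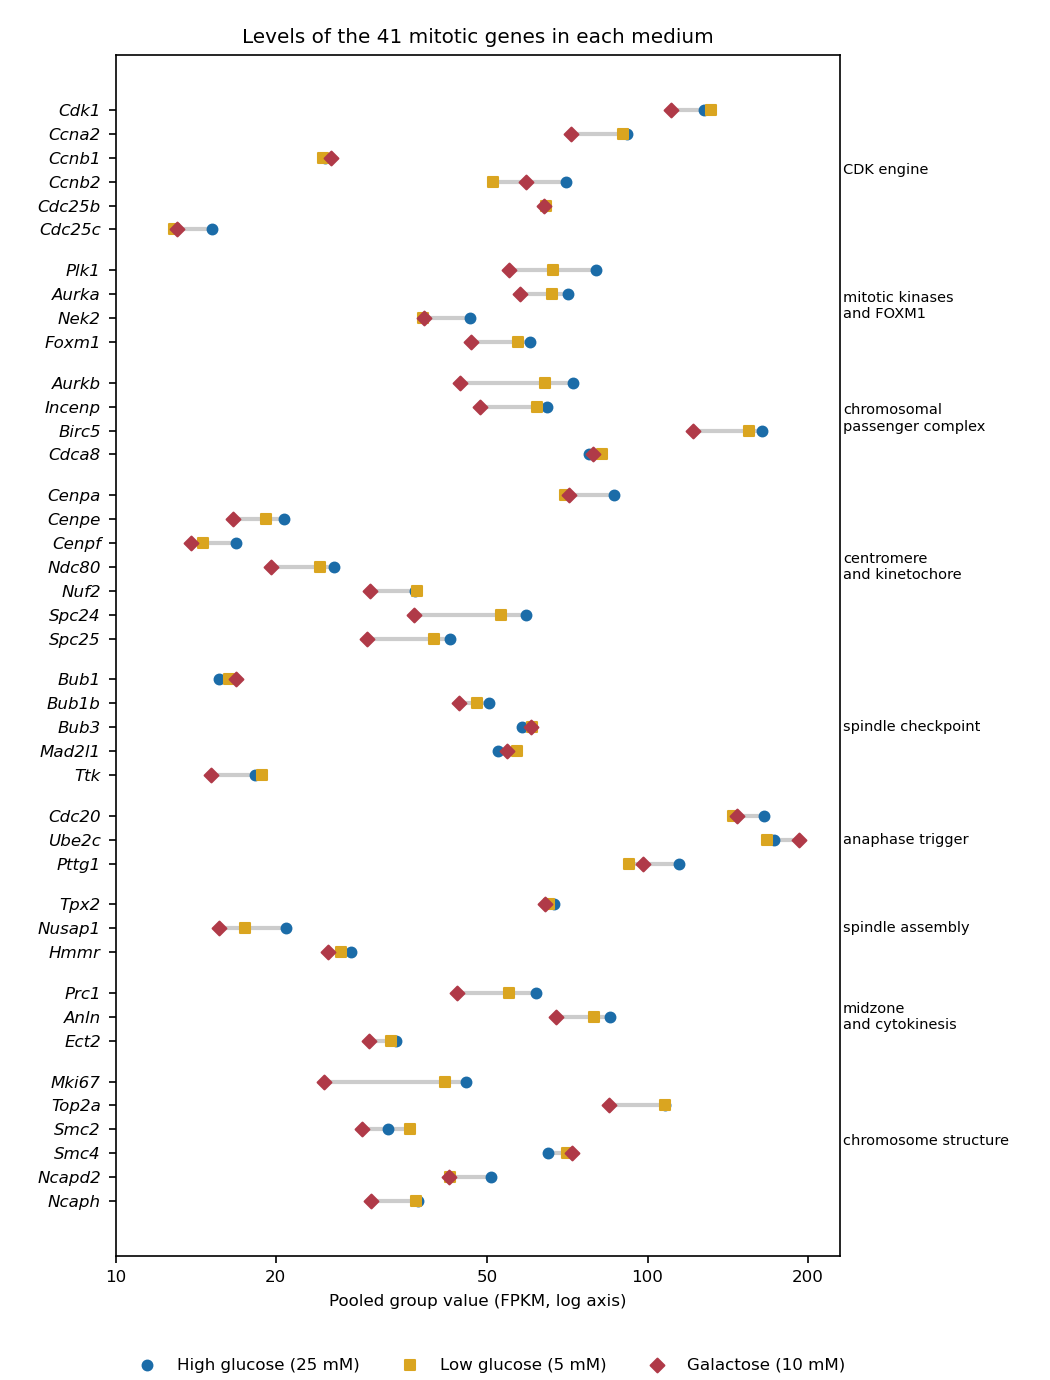
Each row is 1 of the 41 genes, grouped by role, with its pooled FPKM value (x axis, log scale) in high glucose (blue circle), low glucose (dark yellow square) and galactose (red diamond); there is 1 value per group and no error bar. Galactose is the lowest of the 3 for 28 genes, with the widest gap for Mki67 (45.6 against 24.6 FPKM), while for Cdc25b and Tpx2 the 3 points overlap.

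The promoters of the genes share words that the list's choice did not use. G2 and mitotic genes are known for CCAAT boxes, bound by NF-Y, and for the cell cycle genes homology region (CHR), which the MuvB complex binds. RefSeq promoter windows (GRCm38.p6, from 250 bases before to 50 bases after the start of transcription) were at hand for 33 of the 41 genes, in 36 windows. Places are counted from the start that each window uses. The last 25 bases of 34 of the 36 windows lay in a transcript of the gene. Ccna2, Cdc25c, Foxm1, Aurkb, Incenp, Spc24, Tpx2 and Smc4 had no entry. The words searched, on both strands, were CCAAT, and TTTGAA and TTCGAA for the CHR. No other form of the CHR was searched, so a gene counted as without a CHR word may still hold another form. Neighbouring words shared bases at 2 places in the 36 windows. A CHR word was present for 24 of the 33 genes, 72.7%, against 21.7% of all 27025 genes of the RefSeq table. Within 50 bases of the start, a CHR word stood in 66.7% of the genes and in 6.25% of all genes. CCAAT was present in 75.8% against 41.1%, and at least 2 copies of it in 57.6% against 13.3%. Of 120 other genes of mitosis in the same table, 43.3% held a CHR word, 30.0% held one within 50 bases of the start, and 53.3% held CCAAT. Of 33 DNA replication genes, 18.2% held a CHR word and 60.6% held CCAAT. Such a match is a run of letters, and nothing here measured binding.

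These are the 150 bases before the start that the window uses. They are given for each gene with a single window that holds CCAAT and a CHR word whole within those bases. Ccnb1 is added as a gene without a CHR word of the forms searched. Each sequence runs 5′ to 3′ in the direction of the gene, and capitals mark the searched words on either strand, so that ATTGG is CCAAT and TTCAAA is TTTGAA on the opposite strand. For Ncapd2, Mki67 and Top2a the RefSeq gene reaches further upstream than that start, to 125192100, 135716450 and 99024199. All of the Ncapd2 bases, and part of those of Mki67 and Top2a, thus lie inside the gene. The sequences are shown because genes that hold CCAAT and a CHR word differed in their calls in galactose against high glucose. Mki67, Top2a, Cdk1 (q = 0.00571), Ncapd2 (q = 0.00249) and Smc2 (q = 0.0384) fell, and Cdc20, Ube2c and Ccnb1 were not called. A different call is not always a different change: the log2 fold change was -0.17 for Cdc20 and -0.16 for Smc2.
Mki67, chr7:135716380-135716529, minus strand: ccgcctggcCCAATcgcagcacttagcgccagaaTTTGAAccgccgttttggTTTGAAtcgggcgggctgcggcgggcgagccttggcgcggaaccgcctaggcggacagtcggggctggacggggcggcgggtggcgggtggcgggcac
Top2a, chr11:99024190-99024339, minus strand: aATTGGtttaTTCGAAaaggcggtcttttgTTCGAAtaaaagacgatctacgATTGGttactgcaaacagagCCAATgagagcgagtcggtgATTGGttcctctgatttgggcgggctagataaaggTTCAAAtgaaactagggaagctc
Cdk1, chr10:69352913-69353062, minus strand: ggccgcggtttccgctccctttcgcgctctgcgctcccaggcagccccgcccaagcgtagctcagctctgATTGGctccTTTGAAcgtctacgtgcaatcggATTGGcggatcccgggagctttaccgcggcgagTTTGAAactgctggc
Ncapd2, chr6:125191587-125191736, minus strand: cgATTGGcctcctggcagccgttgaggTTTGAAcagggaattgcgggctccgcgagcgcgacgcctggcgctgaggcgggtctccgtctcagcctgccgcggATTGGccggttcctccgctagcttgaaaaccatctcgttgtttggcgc
Smc2, chr4:52439071-52439220, plus strand: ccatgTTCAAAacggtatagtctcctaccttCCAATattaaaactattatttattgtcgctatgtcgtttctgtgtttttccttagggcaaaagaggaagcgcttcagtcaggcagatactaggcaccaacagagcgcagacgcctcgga
Cdc20, chr4:118437344-118437493, minus strand: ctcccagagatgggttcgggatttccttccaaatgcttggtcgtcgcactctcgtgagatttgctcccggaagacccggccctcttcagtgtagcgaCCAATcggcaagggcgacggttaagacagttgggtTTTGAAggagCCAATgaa
Ube2c, chr2:164769779-164769928, plus strand: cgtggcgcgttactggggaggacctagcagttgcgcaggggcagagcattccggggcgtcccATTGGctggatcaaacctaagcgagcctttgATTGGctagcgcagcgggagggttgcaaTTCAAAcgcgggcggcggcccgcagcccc
Ccnb1, chr13:100786487-100786636, minus strand: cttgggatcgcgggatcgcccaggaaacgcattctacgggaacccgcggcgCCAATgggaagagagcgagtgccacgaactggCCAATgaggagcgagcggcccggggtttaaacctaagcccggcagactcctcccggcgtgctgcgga

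Genes with and without the words fell in galactose. Of the 24 genes with a CHR word, 17 fell in galactose, with a median log2 fold change of -0.26. Of the 9 without (Birc5, Ccnb1, Cenpe, Mad2l1, Ncaph, Nek2, Nuf2, Nusap1 and Pttg1), 7 fell, with a median of -0.28. With CCAAT, 17 of 25 fell (median -0.25), and without it 7 of 8 (median -0.32). These are counts in one set of genes and were not tested.

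**Figure D2:**
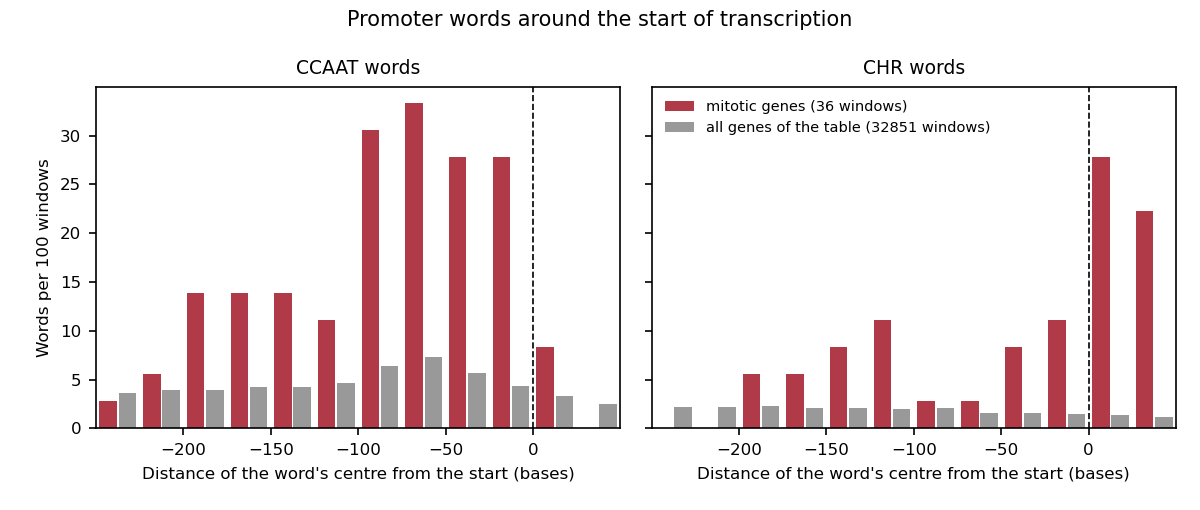
Bars give the number of CCAAT words (left) and CHR words (right) per 100 promoter windows, in steps of 25 bases, by distance of the word's centre from the start of transcription (x axis, bases; dashed line at 0), for the mitotic genes (red, 36 windows) and for all genes of the RefSeq table (grey, 32851 windows). In the mitotic genes, CHR words are most frequent in the first 25 bases after the start, at 27.8 per 100 windows against 1.41, and CCAAT words from 75 to 50 bases before it, at 33.3 against 7.27.

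Of CDK1 and its partners, 4 of 6 genes fell in galactose against high glucose. Counts by role, here and below, stand beside 24.8% of all tested loci called lower between these media. Each role holds few genes, and differences between roles were not tested. In the authors' deposited table, Cdk1 itself stood at 128, 132 and 111 FPKM in high glucose, low glucose and galactose. Low glucose was not called (q = 0.676), and galactose was lower than both glucose media (log2 fold change -0.21 from high glucose, q = 0.00571, and -0.25 from low glucose, q = 0.000456). Ccna2, the cyclin A2 gene, was likewise lowest in galactose. It stood at 91.6, 89.9 and 71.9 FPKM by the authors' deposited table, a fall of 21.5% from high glucose to galactose, and was not called in low glucose (q = 0.802). Exons of Ccna2 overlap those of Exosc9 on the opposite strand over 12.5% of their bases.

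The B-type cyclins, which bring CDK1 to full activity, had different calls. Ccnb1 stood at 24.7, 24.6 and 25.4 FPKM and was called in no comparison in the authors' deposited table. Ccnb2 was lowest in low glucose, with 70.3, 51.3 and 59.0 FPKM. It fell from high to low glucose by a log2 fold change of -0.45, the largest fall of the 41 in that comparison. It was also lower in galactose than in high glucose (log2 fold change -0.25, q = 0.00124), and rose from low glucose to galactose by 0.20 (q = 0.0106 in the authors' deposited table). The value of Ccnb1 is uncertain, since 3 processed pseudogenes (Ccnb1-ps, Gm12856 and Gm8416) match over 51.7% to 52.0% of its longest transcript at 95% identity or more, and how the authors treated such reads is not stated. No other of the 41 had a match over 50% of its length.

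Of the CDC25 phosphatases, which remove the inhibitory phosphates from CDK1, Cdc25c fell in low glucose and in galactose. It went from 15.2 FPKM to 12.9 in low glucose (q = 0.00646) and 13.0 in galactose (q = 0.0119) in the authors' deposited table, and low glucose to galactose was not called (q = 0.901). Exons of Cdc25c overlap those of Gm3550 on the opposite strand over 12.7% of their bases. Cdc25b stood at 64.1, 64.4 and 63.8 FPKM and was not called. Its locus in the authors' deposited table spans 477 kb, against 12.1 kb for the RefSeq gene, and overlaps 11 other loci. The value of Cdc25b may hold reads of other genes, as may that of Anln, whose locus spans 334 kb against 58.0 kb. A wide span does not show this, since separate genes can be listed with the same span and values of their own, as Nusap1 and Oip5 are. In all, 9 of the 41 loci were over 1.5 times as long as the RefSeq gene. They are those of Cdc25b, Anln, Plk1, Aurka, Ccna2, Foxm1, Cdc20, Mad2l1 and Cenpa, and the same limit holds for each.

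Mitotic kinases and FOXM1 fell in 4 of 4 cases from high glucose to galactose. Plk1, whose kinase acts from mitotic entry to cytokinesis, stood at 79.9, 66.4 and 54.9 FPKM in high glucose, low glucose and galactose in the authors' deposited table. It fell in all 3 comparisons, with log2 fold changes of -0.27 (q = 0.000659) in low glucose and -0.54 in galactose against high glucose, and -0.27 (q = 0.000456) in galactose against low glucose. The Plk1 locus spans 27.4 kb, more than the RefSeq gene, and overlaps the locus of Ern2, so the value of Plk1 too may hold reads of another gene. Aurka, a kinase gene of spindle poles, fell from 70.9 to 57.5 FPKM in galactose (q = 0.00197), with 66.1 in low glucose between them (q = 0.373 from high glucose). Nek2, a kinase gene of centrosome separation, stood at 46.4, 37.8 and 38.1 FPKM by the authors' deposited table, fell in low glucose and in galactose against high glucose, and was not called between them (q = 0.926). Foxm1, the transcription factor gene, stood at 60.2, 57.0 and 46.6 FPKM, and its fall from high glucose to galactose had a log2 fold change of -0.37. Because that locus also holds 4933413G19Rik, the value is of both.

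In the chromosomal passenger complex, which corrects wrong attachments of chromosomes to the spindle, 3 of 4 genes fell in galactose. The kinase gene Aurkb (XLOC_003044, mm10 chromosome 11 from 69045617 to 69054105) stood at 72.4, 64.2 and 44.4 FPKM in high glucose, low glucose and galactose in the authors' deposited table. Its log2 fold changes were -0.17 (q = 0.026) from high to low glucose and -0.71 from high glucose to galactose. The scaffold gene Incenp fell from 64.8 to 48.5 FPKM in galactose, and the survivin gene Birc5 from 164 to 121 FPKM, with 62.0 and 155 in low glucose in the authors' deposited table. Cdca8, the gene of the fourth subunit, borealin, was called in no comparison: it stood at 77.5, 82.1 and 79.0 FPKM (q = 0.77 from high glucose to galactose).

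All 7 genes of the centromere and kinetochore fell from high glucose to galactose. The NDC80 complex, the part of the kinetochore that grips the spindle fibre, is made of the products of Ndc80, Nuf2, Spc24 and Spc25. Spc24 (XLOC_024251, mm10 chromosome 9 from 21755442 to 21760286) stood at 59.1, 53.1 and 36.4 FPKM in high glucose, low glucose and galactose in the authors' deposited table. Spc25 stood at 42.6, 39.7 and 29.7 FPKM. Ndc80 stood at 25.8, 24.3 and 19.6 FPKM, and Nuf2 at 36.6, 36.8 and 30.1 FPKM. None of the 4 was called in the authors' deposited table from high to low glucose (lowest q = 0.0543, for Spc24), and all 4 fell from low glucose to galactose. Their log2 fold changes from high glucose to galactose were -0.70 for Spc24, -0.52 for Spc25, -0.39 for Ndc80 and -0.28 for Nuf2.

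Of the other 3 genes of this group, Cenpa and Cenpf fell already in low glucose. Cenpa, the gene of the histone H3 variant that marks centromeres, stood at 86.4, 70.1 and 71.3 FPKM by the authors' deposited table. It fell from high to low glucose by a log2 fold change of -0.30, and low glucose to galactose was not called (q = 0.827). Cenpf, a gene of the outer kinetochore, had 16.8, 14.6 and 13.9 FPKM, with a fall in low glucose (q = 0.00662) and no call from low glucose to galactose (q = 0.391). Cenpe, the gene of a kinetochore motor, had 20.8, 19.2 and 16.6 FPKM. It was not called in low glucose (q = 0.163) and fell from there to galactose (q = 0.00839) in the authors' deposited table.

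Of the spindle checkpoint genes, 2 of 5 fell in galactose against high glucose (40.0%, against 24.8% of all tested loci). In low glucose 0 of 5 were called, where 18.2% of all tested loci were called lower and 18.3% higher. Bub1, a checkpoint kinase gene, stood at 15.7, 16.4 and 16.9 FPKM in high glucose, low glucose and galactose in the authors' deposited table. Bub3, whose product carries BUB1 and BUBR1 to the kinetochore, stood at 58.0, 60.7 and 60.4 FPKM, and Mad2l1, the gene of the anaphase inhibitor MAD2, at 52.4, 56.9 and 54.4 FPKM. None of these 3 was called in any comparison (lowest q = 0.205, for Mad2l1 from high to low glucose). Bub1b, the BUBR1 gene, fell from 50.4 to 44.3 FPKM in galactose (q = 0.0131), and the kinase gene Ttk from 18.3 to 15.1 FPKM (q = 0.000456) in the authors' deposited table. A call that misses the threshold does not show that a level stayed the same.

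Of the 3 genes that control the start of anaphase, only Pttg1 fell in galactose against high glucose (33.3%, near the 24.8% of all tested loci). Pttg1, the securin gene, stood at 115, 92.2 and 98.2 FPKM by the authors' deposited table. Its fall was called in low glucose and in galactose (q = 0.00447). Cdc20, the activator of the anaphase-promoting complex, fell in low glucose, from 166 to 145 FPKM (q = 0.0466), and was not called in galactose, at 147 FPKM (q = 0.0808). Ube2c, which encodes the ubiquitin-conjugating enzyme of that complex, had 173, 168 and 192 FPKM, and rose from low glucose to galactose by a log2 fold change of 0.19 (q = 0.0105) in the authors' deposited table. Its exons overlap those of Tnnc2, the fast skeletal troponin C gene, on the opposite strand over 22.8% of their bases. Tnnc2 stood at 3.11, 1.84 and 3.70 FPKM in the 3 media. The labels do not say that strand was kept, so reads in the overlap cannot be assigned to either gene.

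Of the 3 spindle assembly genes, 1 fell in galactose against high glucose (33.3%, near the 24.8% of all tested loci). Nusap1, which encodes a protein that bundles spindle fibres near chromosomes, fell from 20.9 FPKM in high glucose to 17.5 in low glucose (q = 0.00197) and 15.6 in galactose in the authors' deposited table. Tpx2, the activator of Aurora A, stood at 66.6, 65.2 and 64.1 FPKM and was called in no comparison. Hmmr, a gene of a spindle pole protein, had 27.7, 26.5 and 25.1 FPKM (q = 0.0676 from high glucose to galactose in the authors' deposited table).

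The 3 genes of the spindle midzone and of cytokinesis all fell from high glucose to galactose. Prc1, which encodes the crosslinker of midzone fibres, stood at 61.7, 54.9 and 43.9 FPKM in high glucose, low glucose and galactose in the authors' deposited table, and fell also in low glucose (q = 0.0273). Anln, the anillin gene of the contractile ring, had 85.2, 79.5 and 67.3 FPKM (q = 0.000659 from high glucose to galactose). Ect2, which encodes the activator of RhoA at the cleavage furrow, had 33.6, 33.0 and 30.0 FPKM (q = 0.0315). Exons of Prc1 overlap those of Rccd1 on the opposite strand over 11.1% of their bases.

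Among genes of chromosome structure, 5 of 6 fell in galactose. Mki67 (XLOC_021966, mm10 chromosome 7 from 135689297 to 135716418), whose product coats mitotic chromosomes, was not called from high to low glucose (q = 0.092) and fell by a log2 fold change of -0.75 from low glucose to galactose in the authors' deposited table. Top2a, the gene of the topoisomerase that untangles sister chromatids, had 108 FPKM in both glucose media (q = 0.992) and 84.6 in galactose. Its log2 fold change to galactose was -0.35 from either glucose medium.

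Condensin compacts chromosomes with a pair of SMC subunits and 3 further subunits, and its genes differed in their calls. In the authors' deposited table, Smc2 stood at 32.5, 35.8 and 29.0 FPKM and fell in galactose (q = 0.0384), and from low glucose to galactose by a log2 fold change of -0.30. Smc4, its partner, stood at 64.9, 70.7 and 72.1 FPKM and was called in no comparison (q = 0.052 from high glucose to galactose). Ncaph had 37.0, 36.7 and 30.2 FPKM and fell in galactose. Ncapd2 had 50.7, 42.6 and 42.4 FPKM, with its fall called in low glucose (q = 0.00283) and no call from there to galactose (q = 0.953 in the authors' deposited table). Ncapg, the subunit outside the 41, stood at 21.9, 22.6 and 21.1 FPKM and was not called (q = 0.59 from high glucose to galactose).

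**Figure D3:**
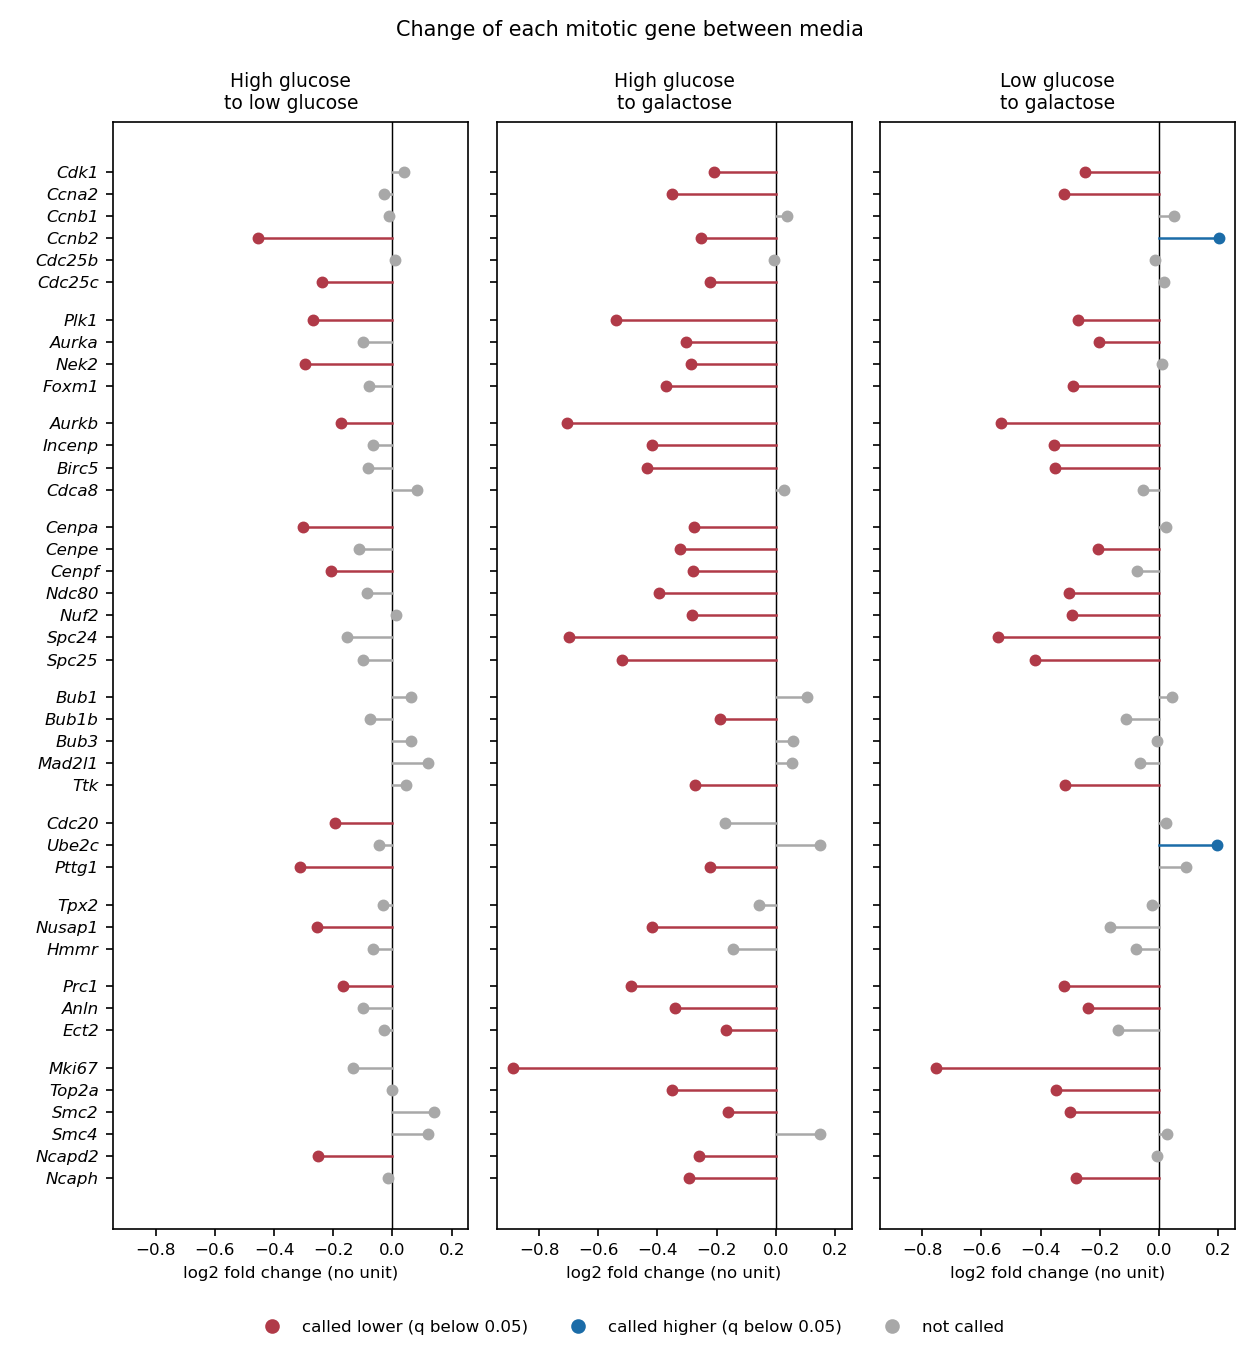
Each row is 1 of the 41 genes and each panel 1 comparison, with the log2 fold change of the authors' deposited table on the x axis (no unit) and the authors' call as colour. In galactose against high glucose 30 genes lie left of 0 as called and none is called higher, and in galactose against low glucose Ccnb2 and Ube2c are the 2 genes called higher.

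The size of a change near the threshold shows what the authors' test could call. From high glucose to galactose the smallest called change was a log2 fold change of -0.16 (Smc2), and the largest not called was -0.17 (Cdc20). From high to low glucose the smallest called was -0.17 (Prc1), and from low glucose to galactose it was 0.19 (Ube2c). No gene of the 41 reached a 2-fold change in any comparison. When group values were scaled to the same sum, the uncalled Ccnb1, Cdca8, Bub1, Bub3, Mad2l1, Ube2c and Smc4 were lower, not higher, in galactose than in high glucose.

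Other genes of mitosis, in 10 lists with 143 genes, were counted in the same way, 9 of them in loci shared with other symbols. From high glucose to galactose 66 of the 143 fell and 14 rose (46.2% and 9.79%, against 24.8% and 26.5% of all tested loci), with a median log2 fold change of -0.18 in the authors' deposited table. From high to low glucose 26 fell and 16 rose, with a median of 0.01, and the share that fell, 18.2%, equals that of all tested loci. Mitotic kinesins, the motors of the spindle, fell in 11 of 12 cases in galactose. In the authors' deposited table, Kif23, the midzone motor gene, went from 51.9 to 34.3 FPKM. Kif18b went from 36.4 to 24.7 FPKM, and Kif11, which pushes spindle poles apart, from 26.6 to 18.6 FPKM. The exception is no value of Kif22 alone: its row is a locus shared with Maz, Mvp, Pagr1a and Prrt2, which was not called, at 198 and 207 FPKM (q = 0.509).

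In the list of other centromere and kinetochore genes, 14 of 28 fell in galactose and 3 rose. The authors' deposited table gave log2 fold changes of -0.88 for Cenpp, -0.75 for Cenpl and -0.51 for Ska1. Other genes of the spindle and centrosome fell in 10 of 19 cases, and 2 rose (52.6% and 10.5%). Among them Fam83d, which anchors casein kinase to the spindle, went from 36.0 to 19.1 FPKM, and Gtse1 and Ckap2l both had log2 fold changes of -0.64. Of the other condensin genes, 3 of 4 fell (75.0%). These were Ncapg2, Ncapd3 and Ncaph2, with log2 fold changes of -0.49, -0.44 and -0.30 (q = 0.00179 for Ncaph2) in the authors' deposited table.

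Other spindle checkpoint genes fell in 5 of 9 cases, and 1 rose (55.6% and 11.1%, against 24.8% and 26.5% of all tested loci). The authors' deposited table gave log2 fold changes of -0.51 for Spdl1, -0.49 for Mad2l1bp and -0.36 for Zw10. Of the other CDK regulators and mitotic kinases, 6 of 16 fell and 1 rose (37.5% and 6.25%). The kinase gene Melk went from 22.5 to 12.1 FPKM, Nek7 from 34.5 to 22.3 FPKM and Bora, which helps to switch on PLK1, from 13.9 to 9.59 FPKM (q = 0.0169) in the authors' deposited table. Of the anaphase-promoting complex and separase, 5 of 18 fell and 1 rose, and the 27.8% that fell is near the 24.8% of all tested loci. The falls included Fbxo5, an inhibitor of that complex, at a log2 fold change of -0.77, its subunit Anapc2 at -0.51, and Espl1, the separase gene, at -0.50 in the authors' deposited table.

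Cohesin, the ring that holds sister chromatids together, had 4 of 13 genes called lower and 2 higher in galactose (30.8% and 15.4%). The share called lower is near the 24.8% of all tested loci, and the share called higher is below their 26.5%. Esco2 and Cdca5, which establish cohesion in S phase, fell by log2 fold changes of -0.86 and -0.78, and Wapl, the cohesin release factor, rose by 0.36 in the authors' deposited table. Other genes of cytokinesis had 4 of 13 called lower and 3 higher (30.8% and 23.1%), both near the 24.8% and 26.5% of all tested loci. The kinase gene Cit and the septin gene Sept9 had log2 fold changes of -0.41 and -0.38, and Chmp4b, of the membrane-cutting ESCRT-III complex, 0.38 in the authors' deposited table. Of the MuvB, B-MYB and DREAM list, 4 of 11 fell and 1 rose (36.4% and 9.09%, against 24.8% and 26.5% of all tested loci). The 1 that rose is a locus shared by E2f4 and Elmo3 (q = 0.0377). Among the falls, Rbl2, Mybl1 and Rbl1 had log2 fold changes of -0.58, -0.56 and -0.29 (q = 0.00143 for Rbl1). Mybl2, the B-MYB gene, rose in low glucose, from 13.0 to 16.5 FPKM, and was not called in galactose, at 12.6 FPKM (q = 0.61 from high glucose) in the authors' deposited table.

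Genes of DNA replication, the phase before mitosis and G2, were counted for comparison. From high to low glucose 12 of 40 rose and 1 fell (30.0% and 2.5%), with a median log2 fold change of 0.11, while 0 of the 41 mitotic genes rose. Of all tested loci 18.3% were called higher and 18.2% lower. Among those with at least 10 FPKM in the larger group the shares were 25.3% and 14.4%, and 30.0% is near the first of these. Pcna, the sliding clamp gene, went from 125 to 156 FPKM in low glucose and 149 in galactose in the authors' deposited table. From high glucose to galactose 17 of 40 fell and 6 rose (42.5% and 15.0%, against 24.8% and 26.5% of all tested loci), with a median of -0.17. Ccne1, Ccne2 and Fen1 fell by log2 fold changes of -0.69, -0.55 (q = 0.000858 for Ccne2) and -0.53, and the licensing factor gene Cdt1 rose by 0.77 in the authors' deposited table. The difference between the lists was not tested.

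**Figure D4:**
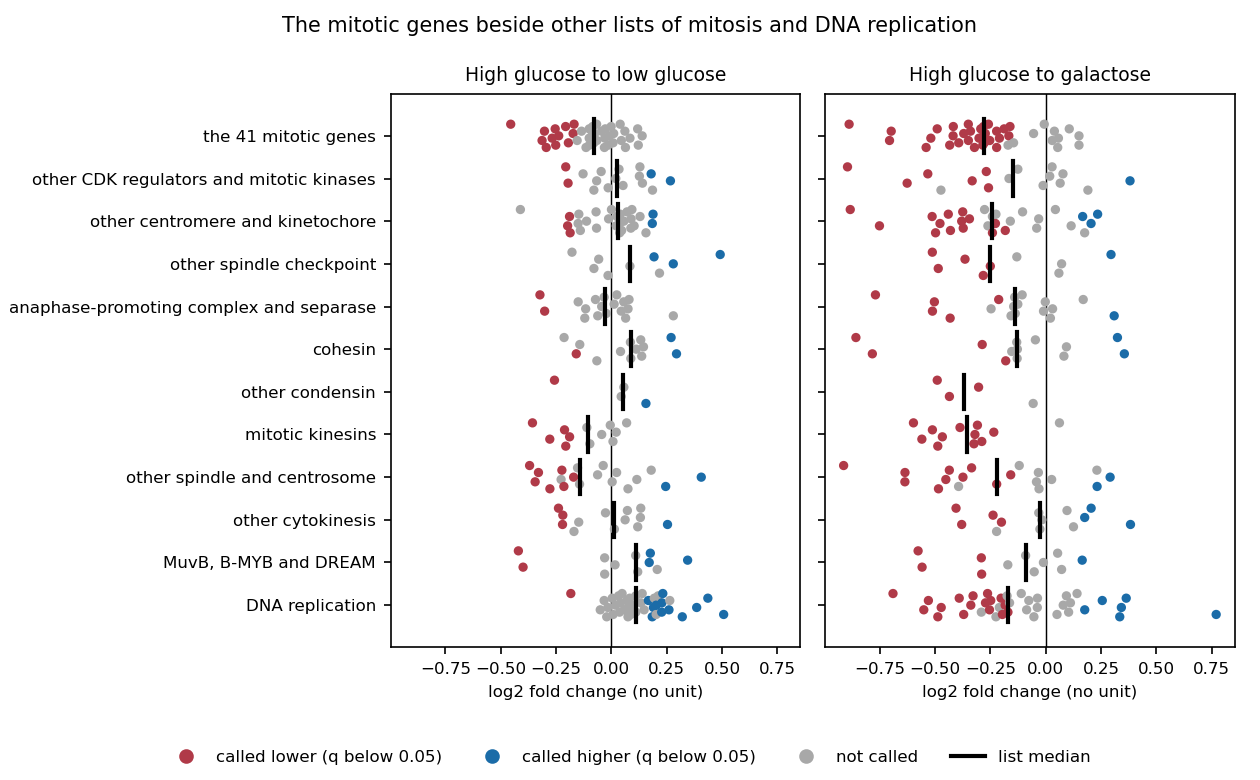
Each point is 1 gene (or the shared locus that holds it), plotted at the authors' log2 fold change (x axis, no unit) for low glucose (left) and galactose (right) against high glucose; its colour gives the call and black bars the list medians. The median of the 41 mitotic genes is -0.08 and -0.28, that of the 12 mitotic kinesins -0.10 and -0.36, and that of the 40 DNA replication genes 0.11 and -0.17.

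Regulators of cell cycle exit and markers of cell state moved in the same media. Of the CDK inhibitors and D cyclins, 5 of 8 tested genes fell in galactose against high glucose and 2 rose (62.5% and 25.0%, against 24.8% and 26.5% of all tested loci). The inhibitor genes Cdkn1c, Cdkn2d and Cdkn2c fell by log2 fold changes of -1.72, -1.46 and -1.08, and the cyclin gene Ccnd2 rose by 1.71 in the authors' deposited table. The D cyclin genes went both ways. Ccnd2 went from 5.40 to 17.7 FPKM and Ccnd1 from 215 to 282 FPKM (q = 0.000456), while Ccnd3 fell from 83.3 to 46.1 FPKM. The level of Cdkn1c was low, at 3.28, 1.33 and 0.994 FPKM in high glucose, low glucose and galactose. Cdkn1a, the p21 gene, had 92.2 and 85.3 FPKM and was not called. Cdkn2a and Cdkn2b were listed at 0 in every group.

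The 6 myoblast markers were all expressed, and 6 of 6 fell in galactose against high glucose, beside 24.8% of all tested loci. Their summed level was 750, 490 and 396 FPKM in high glucose, low glucose and galactose, with Des the largest part at 456, 308 and 268 FPKM. Myod1 stood at 154, 108 and 71.5 FPKM in the table the authors deposited. The markers of differentiating muscle, 10 genes in 9 loci, summed to 43.3, 25.5 and 58.7 FPKM. Acta1 was the largest part of that sum, at 16.1, 11.1 and 30.2 FPKM. Myh3 and Myh8 lie in 1 locus with Myh13, Myh2 and Myh4, which was counted once. From high glucose to galactose 3 of 9 loci fell and 2 rose (33.3% and 22.2%, near the 24.8% and 26.5% of all tested loci). Those that fell were Myog (q = 0.0035), Mymk (q = 0.00143) and the shared Myh locus (q = 0.000858), and Acta1 and Actc1 rose. From low glucose to galactose 8 of 8 tested rose, against 17.4% of all tested loci. Myog, which starts terminal differentiation, stood at 3.61, 1.42 and 2.78 FPKM in the table the authors deposited. Fibroblast markers summed to 54.7, 34.1 and 20.3 FPKM, nearly all of it Pdgfrb at 52.2, 32.2 and 18.3, with Tcf21 and Lum at 0. Of the 6 endothelial and blood markers, the haemoglobin locus was at 0 and 4 others were below 1 FPKM. The row with Cd68 is shared with Eif4a1, a translation factor gene, and gives no value of Cd68 alone. The part of these shifts in the levels of the mitotic genes was not tested.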

How the data were processed

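TopHat2 2.0.10, Cufflinks 2.2.0, Cuffdiff (no version listed) and mouse build mm10 are named in the submitters' processing notes; settings and normalization between libraries are not given in the sources used here. The deposited file is the authors' Cuffdiff table: FPKM per locus and group, the log2 fold change without pseudocount, a test score (not used), and the p-value and q-value of each pair. The q-values equal a Benjamini-Hochberg adjustment over all 44006 tests with status OK. The design text of the series describes single muscle stem cells; groups follow the sample labels, which give C2C12 cells. Symbols were matched to the gene column, split on commas, taking the locus with the highest summed FPKM; of 262 listed genes, 262 were found, 11 by an older symbol. Loci that hold several symbols have 1 value for all of them and were counted once per list. Start positions were raised by 1. No test was refitted. The 41 genes were all named; from each other list, called genes with at least 1 FPKM and the largest change from high glucose to galactose were named, up to 3, or up to 4 for replication and for inhibitors. Myod1, Myog, Cdkn1a, Pcna and Mybl2 were named whatever their call. Kif22, E2f4, Ncapg, Ccnd1 and Ccnd3 were named after their values were seen, as were Ccnb1 as the promoter contrast and the marker genes. The members and lists were chosen with earlier results of these data known. Exon overlaps and near copies were read from GENCODE M21 with blastn 2.17.0. The adjustment was tested on simulated p-values, and the word search on short made-up sequences. Python 3.11.15, pandas 2.3.3, numpy 2.4.6 and matplotlib 3.10.9 were used.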

Additional observations from a re-analysis of the deposited data

How the results depend on the processing

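The counts of called genes (12 in low glucose and 30 in galactose against high glucose, 22 from low glucose to galactose) stayed within 1.5 times under a q below 0.01 (9, 26 and 18), adjustment within each comparison (11, 32 and 21), removal of the combined locus (12, 29 and 21), a limit of 1 FPKM on the larger value and the choice of locus by lowest p. Calls that also had a log2 fold change of 1 or more in size numbered 0 in each comparison, since all changes are smaller; by Cuffdiff's unadjusted p below 0.05, with no limit on size, there were 15, 34 and 24. Adjusted within the comparison, 2 genes were called higher in galactose against high glucose; at q below 0.01, no gene was called higher from low glucose to galactose. The medians kept their sign under a pseudocount of 1 FPKM, re-centring, the limit of 1 FPKM and removal of the combined locus. Scaling the groups to the same sum moved them to -0.17, -0.45 and -0.25 from -0.08, -0.28 and -0.16. No paired analysis was possible because the table holds 1 pooled value per group, and leaving out each replicate in turn was not run for the same reason.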
